A study of Mus musculus with 2 samples.

Results

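The genes described here are the haematopoietic basic helix-loop-helix (bHLH) factors Lyl1 and Tal1, the E protein genes Tcf3, Tcf12 and Tcf4, and the Id genes Id1, Id2 and Id3, as measured in G1E-ER-GATA-1 cells after LMO2 siRNA. They were found on the array by current symbol, by the RefSeq identity of the probe or by an older name (Tcf3 is printed on this array as Tcfe2a). The 8 genes were represented by 17 of 41174 distinct probes. Of these, 15 probes for 7 genes were well above background, and both Id2 probes were not. The whole array gave values for 14315 genes. A pair of probes printed under the name Tcf3 were left out because their RefSeq identity is Tcf7l1, an HMG-box gene outside the bHLH family.

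G1E-ER-GATA-1 is a mouse erythroid line that lacks endogenous GATA-1 and carries a GATA-1 fusion switched on by β-estradiol; the labels give its tissue as erythroid and its strain as GATA-1-null, but its cell type as murine ES cells. A group had received LMO2 siRNA and the other control siRNA, and both were then kept in β-estradiol for 24 h, so that GATA-1 was induced in both arms. Each of 2 two-colour Agilent arrays received total RNA of both arms, with the LMO2 siRNA arm in Cy3 and the control arm in Cy5 each time. Ratios are always of LMO2 siRNA to control siRNA, and they are given as log2 values, with the mean ± SD over the arrays (n = 2).

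Lyl1 and Tal1 are closely related bHLH proteins that bind E-box DNA (CANNTG) only as heterodimers with E proteins. In erythroid cells these heterodimers join GATA-1 through the bridging proteins LMO2 and LDB1. Id proteins have the helix-loop-helix but no basic region, so they tie up E proteins in dimers that cannot bind DNA, and their genes are classical targets of BMP and SMAD signalling. Tcf3 encodes E12 and E47, Tcf12 encodes HEB and Tcf4 encodes E2-2.

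The promoter stretches of Lyl1 and Tal1 are shown first, because E-box and GATA motifs are the DNA elements read by complexes that hold either protein. Each is the 250 bases before the RefSeq start on the plus strand of GRCm38.p6, at chr8:84701207-84701456 for Lyl1 and chr4:115056176-115056425 for the upstream start of Tal1. Capitals mark a match to the E-box in Lyl1 and to a GATA motif in Tal1.
Lyl1: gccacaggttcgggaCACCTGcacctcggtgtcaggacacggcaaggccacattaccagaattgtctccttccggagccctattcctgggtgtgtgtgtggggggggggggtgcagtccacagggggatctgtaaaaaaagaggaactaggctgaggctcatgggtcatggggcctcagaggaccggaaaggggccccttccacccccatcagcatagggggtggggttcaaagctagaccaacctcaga
Tal1: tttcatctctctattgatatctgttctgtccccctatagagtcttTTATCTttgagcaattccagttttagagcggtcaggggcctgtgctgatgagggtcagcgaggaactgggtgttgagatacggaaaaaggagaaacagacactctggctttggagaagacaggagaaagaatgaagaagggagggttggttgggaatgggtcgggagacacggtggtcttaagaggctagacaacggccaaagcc
On both strands, the Lyl1 stretch held 1 match to CANNTG, at -235, which is a CAGGTG on the minus strand, and no match to the GATA set searched (AGATAA and AGATAG, together with the variants TGATAA and also TGATAG). The Tal1 stretch held 1 GATA match, at -205, which is AGATAA on the minus strand, and no E-box, and the stretch at a second Tal1 start, chr4:115057561-115057810, held neither. Over 32851 RefSeq promoters of the same length, 66.2% held CANNTG, 17.2% held CAGGTG and 26.5% held a GATA match. The ETS core GGAA matched 5 times in Lyl1, 4 times in the upstream Tal1 stretch and 3 times in the other, and 93.4% of promoters held it. All of these are matches of letters in a window and no measurement of binding.

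Probe sequences are given for Id1 and Tcf12, whose probes gave different values, as did those of Tcf3 and Tcf4. The arrays carry 60-base probes, of which the first 30 bases are given. For Id1, capitals mark the bases that both printed stretches share. The Id1 probes overlap by 50 bases in all, from base 11 of the first and base 1 of the second, so they read almost the same piece of the transcript.
Id1 probe 1: gaggaaatatTTTGTATTGTATATTACAAT
Id1 probe 2: TTTGTATTGTATATTACAATgatcactggc
Tcf12 probe 1: atttacaatagcattttaagagcatagtag
Tcf12 probe 2: aagtgataagcagacaccatctgtgaccat
Tcf12 probe 3: atttttgctaatggtcatctttttcactgt
The 5 Tcf12 probes share no run longer than 7 bases with each other, so they read separate stretches. The first and the second were designed on the RefSeq transcript of Tcf12, the third on a full-length cDNA, and the remaining pair on a cDNA clone whose older gene name is now an alias of Tcf12.

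Several facts of the whole comparison bear on the values below. Lmo2, the targeted gene, read 1254 and 1138 intensity units with LMO2 siRNA and 8336 and 8571 with control siRNA, and fell by 1.92 ± 0.14 on the log2 scale (limma adjusted p = 3.4e-21), so the labels' direction was met. Because Cy3 was always the LMO2 siRNA arm, dye and siRNA cannot be told apart. The labels do not say whether the arrays came from separate cultures, so the spread behind the p-values may be technical. In the main fit that spread is mostly taken from other genes (1 residual against 28 prior degrees of freedom). A small p-value is therefore no measure of how well the arrays agreed for a gene. The control channel was brighter before normalization for 96.9% of genes on both arrays, with a median background-subtracted log2 ratio of -0.93 and -0.89. Ratios were therefore set by loess within each array. With limma, 51.9% of genes were called at an adjusted p of 0.05, 3507 higher and 3923 lower, so a call alone says little about a gene. Along the rows of the array the ratios drifted, from a median of -0.22 and -0.24 in the first rows to 0.17 and 0.13 near the far end, and dividing by the scanner's own position factors left 2897 genes higher and 2565 lower (38.2% called). In the scanner's processed signals, which are already corrected for position and dye, 973 were higher and 488 lower (10.2% called). The fit to processed signals had only 2.2 prior degrees of freedom, against 28 in the main fit. A ratio can therefore fail there without being smaller. With median centring in place of loess the median of all genes was -0.40, so its signs are relative to that shift. Below, "rose" and "fell" are kept for genes with no saturated spot whose call had 1 direction in each of these 3 sets of values, as 7.98% of genes had, 5.42% upwards and 2.56% downwards. No spot of the 8 genes was saturated.

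Among the 7 measured genes, Lyl1 and Tal1 were called higher (24.5% of all genes were called higher), Tcf12 and Id1 were called lower (27.4% of all genes), and Tcf3, Tcf4 and Id3 passed in neither direction. Only Lyl1 rose by the rule of all 3 sets of values. The median log2 ratio of the 7 was 0.04, against -0.02 for all genes, and their median size without sign was 0.20 against 0.14. All 7 had the same sign on both arrays, as did 82.1% of all genes.

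**Figure D1:**
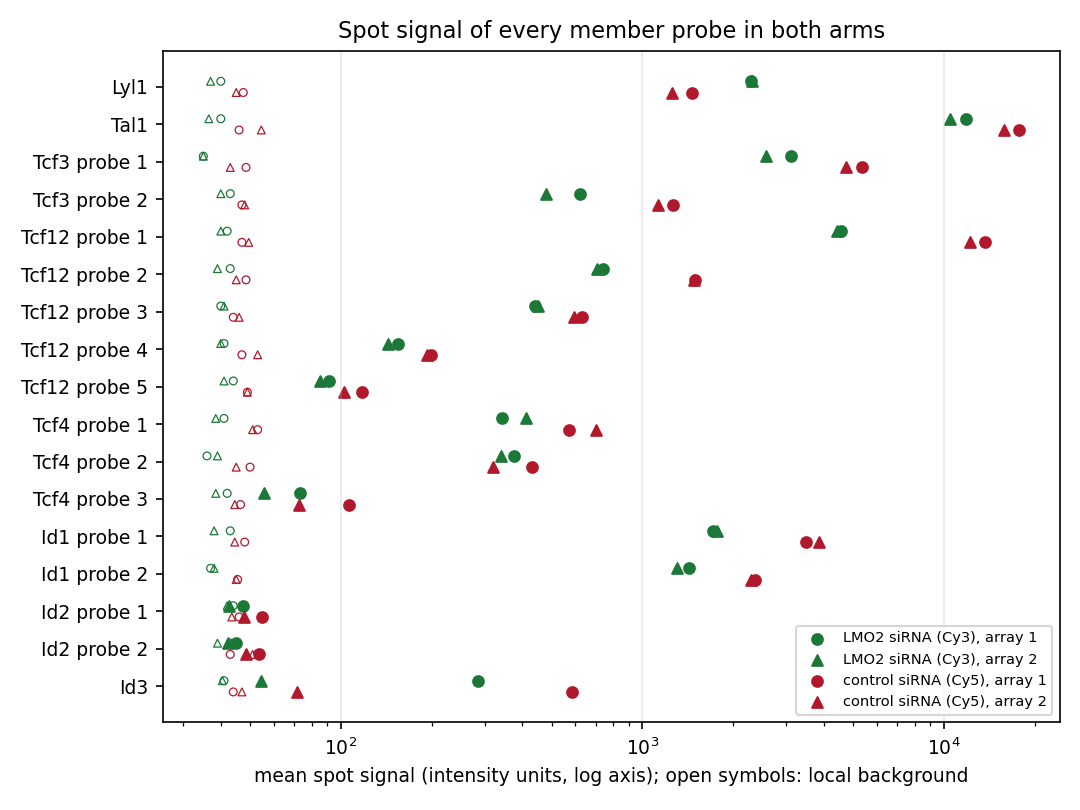
Mean spot signal in intensity units (log axis) of each of the 17 probes, in the LMO2 siRNA (Cy3, green) and control siRNA (Cy5, red) channel of array 1 (circles) and array 2 (triangles); open symbols are the local background. Lyl1 is brighter in the LMO2 siRNA channel on both arrays, and both Id2 probes sit at their background. The signals are not normalized, so the dye difference is still in them, and levels of different probes cannot be compared.

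Lyl1 had the largest ratio of the 7 genes in either direction. Its probe read 2290 and 2307 intensity units with LMO2 siRNA against 1463 and 1257 with control siRNA. The LMO2 siRNA channel was thus the brighter one on both arrays even before normalization (log2 ratio 0.67 and 0.91), the reverse of 96.9% of genes. After normalization the log2 ratio was 1.51 on array 1 and 1.70 on array 2. Lyl1 rose 3.04-fold (1.60 ± 0.14, limma adjusted p = 2.1e-19 over all genes). This placed it 20th from the top among 14077 genes with no saturated spot. The ratio was 1.74 ± 0.14 with position correction, 13th of all genes, and 1.80 in processed signals, 46th, where the adjusted p was 0.024. A ratio of 2-fold or more on both arrays, which Lyl1 had, was found for 1.02% of genes.

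Tal1, the relative of Lyl1 that the LMO2 complex is best known for in red cells, differed much less. Its probe read 11867 and 10469 units with LMO2 siRNA against 17747 and 15870 with control siRNA, so the control channel was the brighter one before normalization (log2 ratio -0.58 and -0.60). That was still above the median of all genes, and after loess the log2 ratio was 0.41 and 0.35, which is a small difference (0.38 ± 0.04, limma adjusted p = 1.6e-06 over genes). With position correction it was 0.16 ± 0.06, with an adjusted p of 0.038 in the fit over genes and 0.052 in the fit over probes. In processed signals it was 0.18, with an adjusted p of 0.14. With median centring the direction turned, and Tal1 was called lower at -0.36 (adjusted p = 6.4e-04), beside the median of -0.40 for all genes. Tal1 lay 1220th from the top of the genes at first, and 2815th with position correction. The spot of Tal1 is at row 466, where all spots together had a median above 0.

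Set side by side, Lyl1 exceeded Tal1 by 1.10 on array 1 and 1.35 on array 2 on the log2 scale, a mean of 1.23 ± 0.18. With position correction the gap widened to 1.58 ± 0.21, and processed signals gave 1.62 ± 0.21. The ranges of the pair over both arrays did not overlap with any of these values. With 2 arrays no permutation test of this gap can pass a threshold, so none is given.

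**Figure D2:**
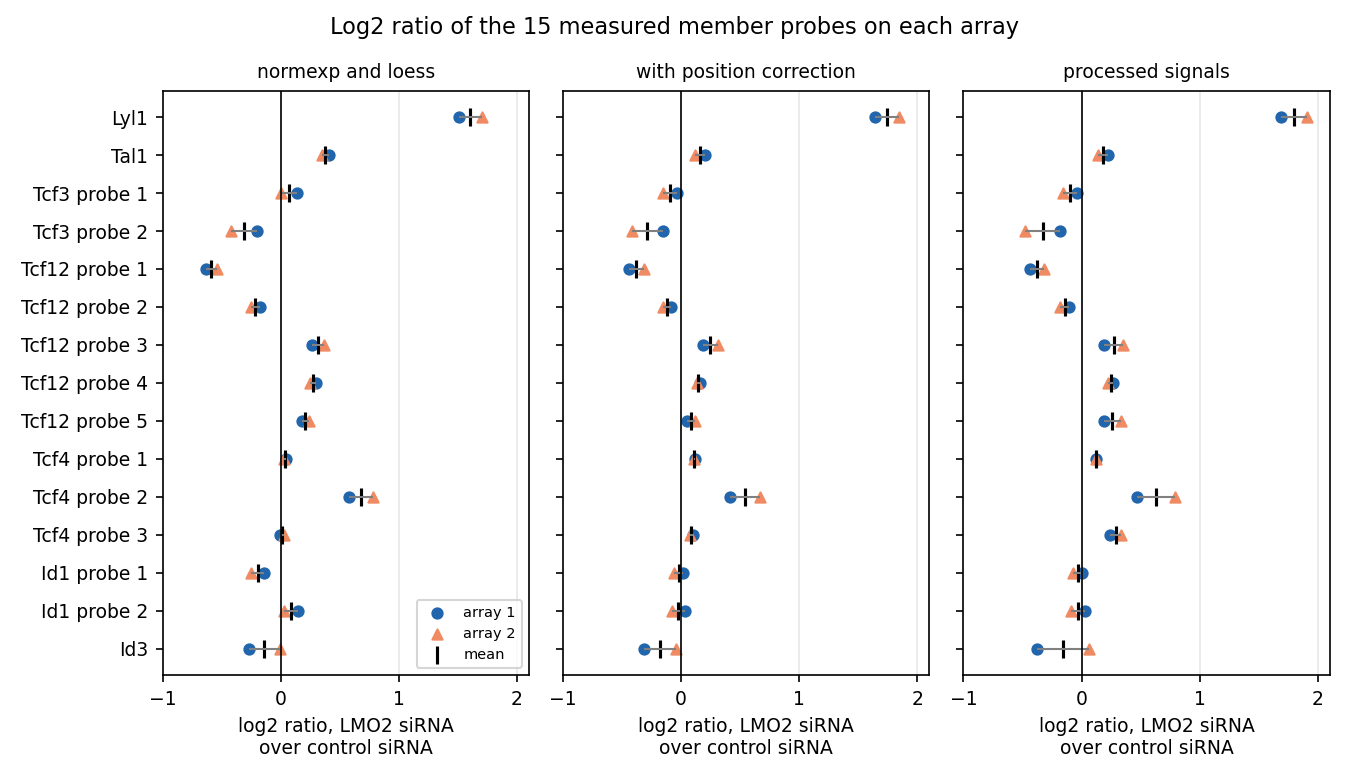
Log2 ratio (LMO2 siRNA over control siRNA) of the 15 measured probes on array 1 (blue circles) and array 2 (orange triangles), with the mean as a black tick, after normexp and loess, with position correction besides, and in the scanner's processed signals. Lyl1 lies at 1.5 or above on both arrays in all 3 panels; the Id1 probes, apart by 0.28 in the left panel, coincide in the middle and right panels.

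The E protein genes had no common direction. Tcf3, whose products E12 and E47 are partners of TAL1, had a probe that read 3103 and 2574 units with LMO2 siRNA against 5341 and 4737 with control siRNA. Its log2 ratio was 0.14 on array 1 and 0.0030 on array 2 (0.07 ± 0.10, limma adjusted p = 0.32), and -0.09 with position correction as well as in processed signals. The sign thus depended on the processing, and none of the values passed. A dimmer probe read 622 and 479 against 1262 and 1131 units. It gave -0.20 and -0.42 (-0.31 ± 0.16, adjusted p = 7.6e-04 in the fit over probes), -0.29 with position correction (adjusted p = 0.0094) and -0.33 in processed signals (adjusted p = 0.14). The dimmer Tcf3 probe was therefore called lower in 2 of 3 sets of values, and the brighter one in 0 of 3.

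Tcf12, which encodes the E protein HEB, gave opposite signs from probe to probe. The brightest probe read 4543 and 4415 units with LMO2 siRNA against 13649 and 12168 with control siRNA. Its log2 ratio was -0.63 and -0.54, called lower (-0.59 ± 0.06, limma adjusted p = 5.9e-10 over genes), 251st from the bottom of all genes. With position correction it was -0.38 ± 0.09 (adjusted p = 5.0e-04), and in processed signals -0.38 (adjusted p = 0.061). Array rows near this probe, at row 95, had a median below 0 before position correction. The second probe of the RefSeq transcript was also on the low side, at -0.18 and -0.25 (-0.21 ± 0.05, adjusted p = 0.0061 over probes), and at -0.12 with position correction, where it did not pass (adjusted p = 0.13).

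The remaining 3 Tcf12 probes were on the high side on both arrays, although with median centring the cDNA probe read -0.19 and a clone probe -0.049. The cDNA probe read 441 and 451 units with LMO2 siRNA against 631 and 593 with control siRNA, a log2 ratio of 0.26 and 0.36 after loess (0.31 ± 0.07, adjusted p = 3.4e-04 over probes). It was 0.25 with position correction (adjusted p = 0.0081) and 0.27 in processed signals (adjusted p = 0.12). The probes of the clone gave 0.27 ± 0.03 and 0.21 ± 0.04, and 0.15 and 0.08 with position correction, where neither passed (adjusted p = 0.064 and 0.29). The Tcf12 clone probes were dim, between 85.3 and 199.9 units in every channel. The cDNA probe exceeded the brightest probe by 0.89 on array 1 and 0.91 on array 2, and by 0.62 on both with position correction. The probes with opposite signs are thus farther apart than the arrays are for either of them.

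Differences between probes of a gene were common on this array, though few were as wide. Among 5190 genes with at least 2 measured probes, the median gap between the highest and the lowest probe was 0.25, and the Tcf12 gap of 0.90 was at percentile 97.8. Probes of both signs were found in 48.9% of these genes, and probes called in both directions in 11.8%. Averaged over its 5 probes, Tcf12 had a log2 ratio of -0.00077 (limma adjusted p = 0.99), so the call of the gene rests on the choice of the brightest probe.

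Tcf4, which encodes E2-2, the E protein of plasmacytoid dendritic cells, likewise had a probe apart from the others. The brightest probe read 342 and 411 units with LMO2 siRNA against 572 and 700 with control siRNA, and its log2 ratio was 0.04 and 0.03 (0.04 ± 0.01, limma adjusted p = 0.63). The dimmest, at 0.01 ± 0.02, did not pass either (adjusted p = 0.90 over probes). The remaining Tcf4 probe, designed on another cDNA record of the gene, read 376 and 341 units against 430 and 321. After loess it gave 0.58 and 0.78, which is 1.60-fold higher (0.68 ± 0.14, adjusted p = 2.7e-07 over probes). It stayed at 0.54 with position correction (adjusted p = 1.9e-04) and at 0.63 in processed signals, with an adjusted p of 0.071. The gap between the Tcf4 probes, 0.67, was at percentile 93.2 of the genes with at least 2 probes. Averaged over probes Tcf4 would be called higher (0.24, limma adjusted p = 0.0011).

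In all, 6 of the 15 measured probes were called higher, against 21.6% of all probes, 4 lower, against 24.4%, and 5 neither. Those called higher were the probes of Lyl1 and Tal1, 1 of Tcf4 and 3 of Tcf12. Those called lower were 1 of Tcf3, 2 of Tcf12 and 1 of Id1. With all 3 sets of values only the Lyl1 probe was called, beside 3.53% of all probes, 2.69% higher and 0.837% lower.

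No Id gene was called with all 3 sets of values. Id1, the first of the dominant-negative partners of E proteins, had a brighter probe that read 1710 and 1773 units with LMO2 siRNA against 3499 and 3847 with control siRNA. Its log2 ratio was -0.14 and -0.25, called lower in the fit over genes (-0.20 ± 0.07, limma adjusted p = 0.0046). The overlapping probe read 1423 and 1300 against 2356 and 2292 units, and gave 0.15 and 0.03 (0.09 ± 0.08, adjusted p = 0.25 over probes). Thus the Id1 probes printed above, which share 50 of 60 bases, had opposite signs on both arrays, apart by 0.29 on array 1 and 0.28 on array 2. The mean gap of 0.28 was at percentile 55.2 of the genes with at least 2 measured probes, so it was an ordinary one.

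The Id1 probes sit at rows 122 and 523, which is 401 rows apart. With position correction they read -0.02 each and differed by -0.0018. In processed signals they read -0.03 each and differed by -0.0017. None of these Id1 values passed (adjusted p = 0.79 with position correction and 0.73 in processed signals over genes). The disagreement of the Id1 probes was thus not seen once position was taken into account.

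**Figure D3:**
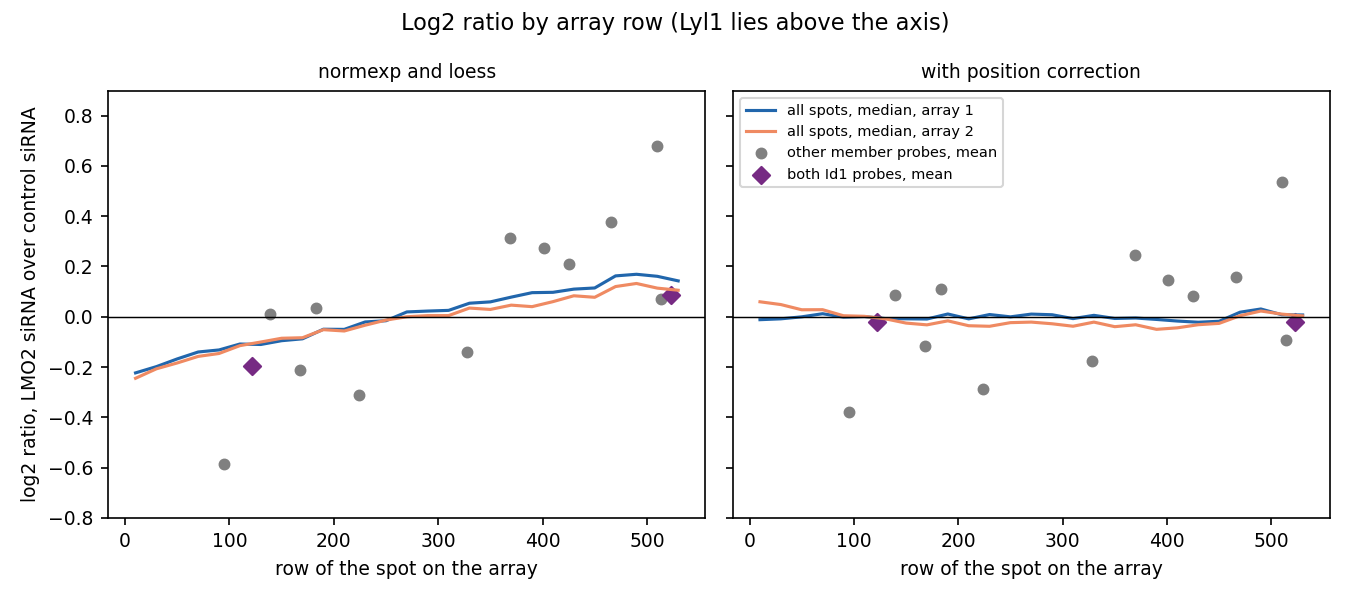
Median log2 ratio of all spots by array row (20 rows per point) on array 1 (blue) and array 2 (orange), before and after position correction, with the mean of each measured probe at its own row; Lyl1, at 1.60 and 1.74, lies above the plotted range. The Id1 probes (purple diamonds) lie on either side of 0 in the left panel, as the median lines do at their rows, and meet at -0.02 in the right panel.

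Id2, the Id gene of innate lymphoid and natural killer cells, was not measured. Its probes read between 42.3 and 47.4 units with LMO2 siRNA and between 47.7 and 54.7 with control siRNA, beside a local background of 39 to 51, and no channel was well above background on either array. No ratio is given for Id2.

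Id3, a target of E proteins and of BMP signalling, read 284 and 54.3 units with LMO2 siRNA against 586 and 71.7 with control siRNA. The spot was brighter on array 1 in both arms, and the scanner marked it there as non-uniform in both channels. The log2 ratio was -0.27 on array 1 and -0.01 on array 2 (-0.14 ± 0.19, limma adjusted p = 0.055). It was -0.18 with position correction (adjusted p = 0.064). Without the marked spot only the array 2 value of -0.01 is left for Id3, and no test of that value alone is given.

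**Figure D4:**
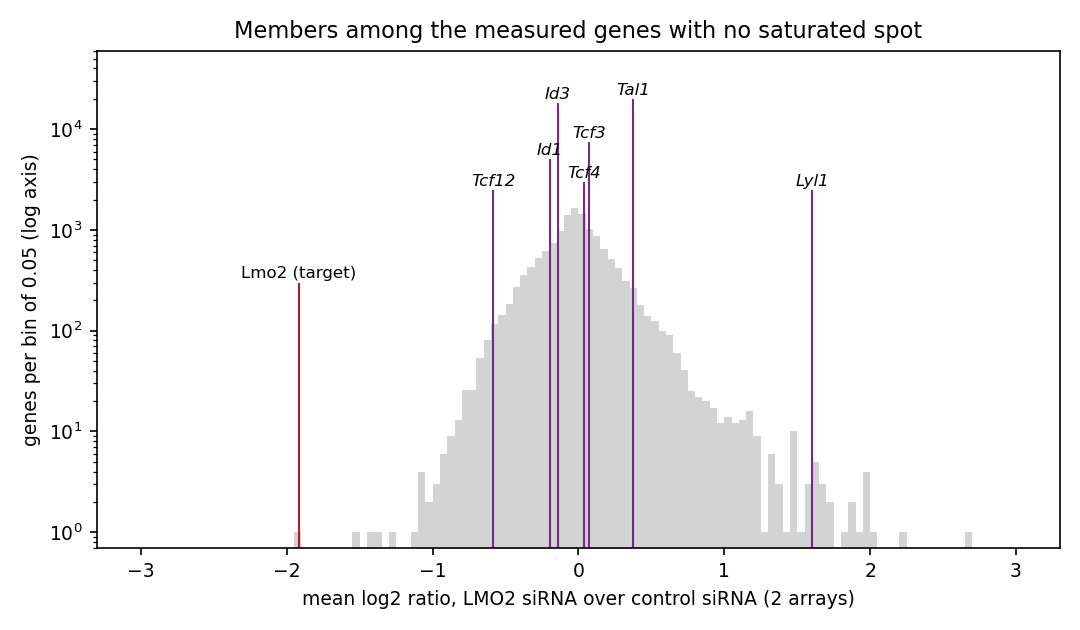
Number of genes per bin of 0.05 in mean log2 ratio (log axis, 14077 genes with no saturated spot), with the 7 measured genes marked in purple and Lmo2, the siRNA target, in red; line heights only keep the names apart. Lyl1, at 1.60, stands in the upper tail, Tcf12, at -0.59, and Tal1, at 0.38, on the flanks, and the other 4 genes near the centre.

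The genes that work with these factors were mixed too. Of 21 components of the LMO2 complex and its cofactors, a list that includes Lmo2 itself, 20 were measured. Of these, 5 were called higher, 9 lower (the siRNA target Lmo2 among them) and 6 neither. The median was -0.06 against -0.02 for all genes. Counts in this list and those below are to be read beside the 24.5% of all genes called higher and the 27.4% called lower. Ssbp2, a single-stranded DNA-binding protein gene whose product protects LDB1, read -0.75 on both arrays and fell, and Lmo4, which encodes another LIM-only protein that binds LDB1, and Gata2 rose, so that with Lmo2 there were 2 rises and 2 falls. The Gata2 ratio was 0.43 ± 0.06 and turned to -0.20 with median centring. Gfi1b, a zinc finger repressor of the erythroid lineage, had a called ratio of -0.83 ± 0.06, and of -0.43 once position was corrected. Zfpm1, which encodes the GATA-1 cofactor FOG-1, was saturated, so its ratio is not given.

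In a list of 10 HLH repressors outside the E protein family, Id4 is a further Id gene and the others are Hes, Hey and Bhlhe genes. Id4 was not well above background, and 7 of the 10 were measured. Of these, 2 were called higher, 1 lower and 4 neither (median -0.07), and both called higher also rose. Hey1, a repressor downstream of Notch, gave 1.87 on array 1 and 1.88 on array 2 (1.87 ± 0.0089, 1.94 with position correction). Hes1, another Notch target, gave 0.36 and 0.41 (0.38 ± 0.04). Bhlhe41 was called lower at -0.16 ± 0.21 and read -0.31 on one array and -0.02 on the other, while Hey2 did not pass (-0.10 ± 0.07). Hey1 and Lyl1 were thus the bHLH genes of these groups with ratios above 1.

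Other tissue-restricted partners of E proteins were mostly not measured or not called. Of 29 genes such as Twist1 and Tal2, 18 were not well above background, 9 passed in neither direction and 2 were called lower (median -0.04). Bhlha15, the secretory cell factor MIST1, fell by 0.34 ± 0.09. The muscle gene Myod1 read -0.63 on array 1 and -0.04 on array 2, a spread as wide as its mean (-0.34 ± 0.42). Mesp1 (0.10 ± 0.01) and Atoh8 (0.07 ± 0.09) did not pass.

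In the BMP and SMAD pathway that drives Id genes, 13 of 20 genes were measured, 5 were called higher, 0 lower and 8 neither, with a median of 0.13 (0.09 with position correction) against -0.02 for all genes. Bmpr2, a type II BMP receptor, gave 0.41 and 0.51 and rose (0.46 ± 0.07, 0.60 with position correction, but -0.14 with median centring). Smad6, an inhibitory SMAD, was called higher but spread between 0.63 and 0.35 (0.49 ± 0.20), as was Smad1, which carries the BMP signal to Id promoters, at 0.16 and 0.31 (0.23 ± 0.10). Smurf2, a ubiquitin ligase for SMADs, was called at 0.18 ± 0.15, and read -0.13 with median centring. The share called higher, 5 of 13, is to be read beside the 24.5% of all genes called higher, and only Bmpr2 met the rule of all 3 sets of values.

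Known targets of the TAL1 complex were all measured, 12 of 12, with 4 called higher, 4 lower and 4 neither (median -0.05). Of all genes, 24.5% were called higher and 27.4% lower. Myb, a progenitor transcription factor, gave 0.74 and 0.88 and rose (0.81 ± 0.10), and Kit, the stem cell factor receptor, gave 0.68 and 0.69 and rose (0.69 ± 0.0057). Gfi1b and Slc4a1, the red cell anion exchanger (-0.49 ± 0.03), were called lower without meeting the rule, and Hba-a1, an adult α-globin gene, was saturated. Of 15 E protein targets of lymphocytes 7 were measured, 2 were called higher, 2 lower and 3 neither (median -0.06). Notch3 rose by 0.15 ± 0.03 but read -0.053 with median centring. Its call was marginal, with a limma adjusted p of 0.0498 in processed signals and 0.0514 in the series' own table of ratios. The same held for Vpreb1, with 0.0492 and 0.0506. Vpreb1, a surrogate light chain of early B cells, fell by 0.16 ± 0.02, Cdkn1a, a cell cycle inhibitor, was called at 0.16 ± 0.02 (-0.49 with median centring) and Dntt, the terminal transferase, at -0.23 ± 0.07.

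**Figure D5:**
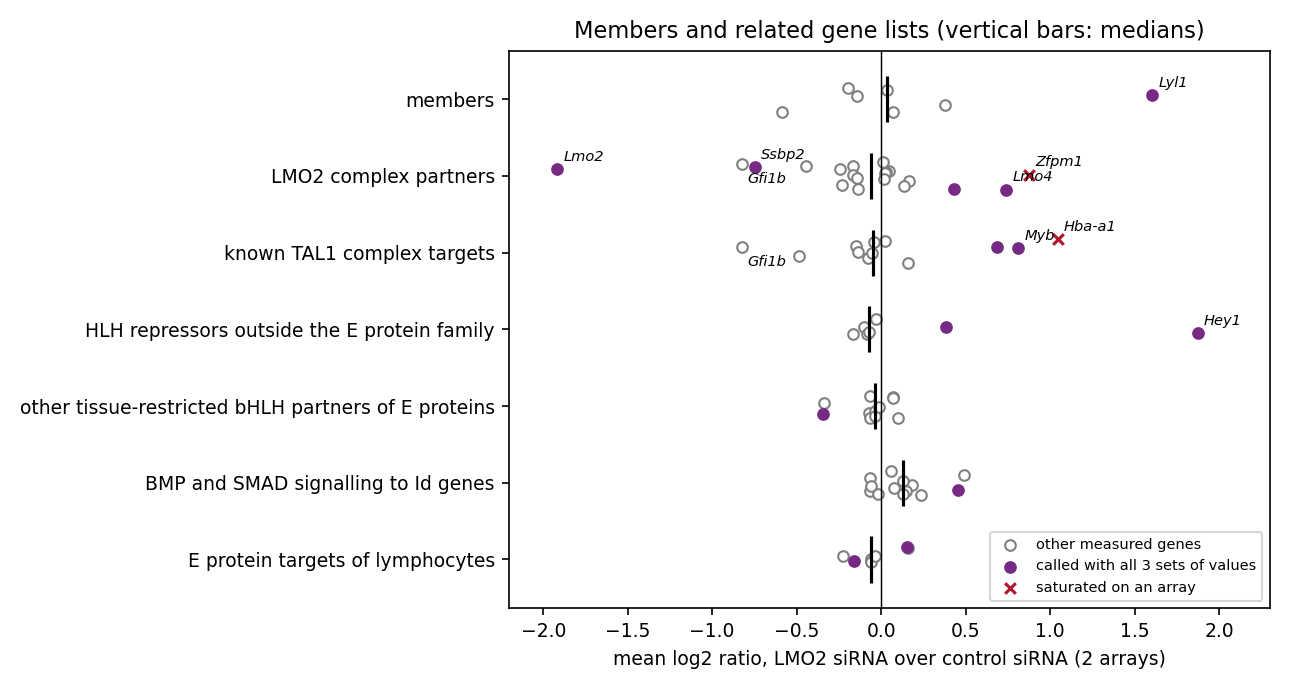
Mean log2 ratio of each measured gene in the 8-gene set and in 6 lists of related genes; filled purple points are called with all 3 sets of values, open points are other measured genes, red crosses are saturated, vertical bars are medians, and names are given at 0.7 or beyond. Lyl1 and Hey1 lie to the right of all other unsaturated genes, Lmo2 to the left, and the medians of the lists lie between -0.07 and 0.13.

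The identity of the cells bears on genes that several blood cell types use. Summed over 8 measured erythroid markers, processed signals were 393747 and 403365 units with LMO2 siRNA and 269970 and 265701 with control siRNA, a sum that includes saturated Hba-a1; the other 7 had 1 called higher, 3 lower and 3 neither. Lymphocyte markers summed to between 511 and 616 units with LMO2 siRNA and between 618 and 828 with control siRNA (6 of 10 measured, 0 higher, 2 lower). The pluripotent markers Nanog, Sox2 and Zfp42 were not well above background, although the labels name ES cells. The 5 of 8 that were measured summed to 443 and 431 units with LMO2 siRNA against 400 and 376 with control siRNA. Of these 5, 1 was called higher, Dppa5a, at 0.34 and 0.42 on the arrays (0.38 ± 0.06), and 0 were lower. In granulocyte and macrophage markers 7 of 10 were measured and 2 were called higher (643 and 726 against 589 and 664 units), and in plasmacytoid dendritic markers 4 of 6 with 1 higher (322 and 354 against 281 and 199).

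Mast cell and megakaryocyte markers were higher in sum with LMO2 siRNA on both arrays. So were the erythroid, granulocyte and macrophage, plasmacytoid dendritic and pluripotent markers, and only the lymphocyte sum was lower. A sum follows its brightest genes, and the erythroid one includes saturated Hba-a1. The median log2 ratio was -0.06 for the erythroid list, -0.03 for granulocyte and macrophage and -0.04 for plasmacytoid dendritic markers. It was 0.002 for pluripotent and -0.07 for lymphocyte markers. The 6 of 8 mast cell and basophil markers measured summed to 1953 and 2115 units against 870 and 967, with Hdc, the histamine-forming enzyme, at 1.22 ± 0.08 and Cpa3, a granule protease, at 0.37 ± 0.13 among them. These 2 were called higher and 0 lower, and the other 4 (Gzmb at 0.12, Mcpt4 at 0.06, Cma1 and Fcer1a at -0.03) did not pass, so that the median of the list was 0.09. The 7 of 8 megakaryocyte markers measured summed to 5231 and 5657 against 3778 and 3671 units, with 2 called higher and 1 lower and a list median of 0.10. Their part in the Lyl1 result was not tested. In RNA from whole cultures, a change in the number of cells of a type and a change in RNA per cell cannot be told apart.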

How the data were processed

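Spots were quantified by the authors' scanner software, Feature Extraction 9.1.3.1, per the file headers; the deposited files give intensity on a linear scale, and log10 ratios of red over green. Of the genome build of the array design the sources used here say nothing. Of 45018 spots, 1639 were controls and 43379 were spots for genes. Mean signals were background-corrected by normexp (offset 50) and then loess-normalized, control spots having weight 0, in limma 3.58.1 (R 4.3.3). Spots of a probe were averaged. A probe counted as measured with at least 1 channel well above background on both arrays (24737 of 41174 probes; 55.8% to 68.2% of spots by channel), and a gene is its brightest probe. Probes were named by RefSeq (24844), by the array file (9634) or by an older alias (2). Mean log2 ratios were tested against 0 (lmFit, eBayes) and adjusted by Benjamini-Hochberg over all genes or all probes; with 1 residual against 28 prior degrees of freedom, the variance behind a p-value is mostly that of other genes. The script was tested on simulated data of 14315 genes, 100 of them changed by 1.5-fold or by 2-fold. It recovered 100% of the changed genes, with 27 false calls at either fold. For position correction, background-corrected signals were divided by the ratio for position that the deposited files give; processed signals are the scanner's own and had only 2.2 prior degrees of freedom. The members, the lists and the rule for named genes (all members, Lmo2 and up to 4 genes with the largest absolute ratio per pathway list; markers and counts besides, and the marker genes, Lmo4, Gata2 and Slc4a1 named for their values) were chosen with earlier results of these data known. Lists are described by counts and medians and were not tested. The arrays share a slide, and no batch could therefore be tested. Promoter and gene names come from RefSeq tables of GRCm38.p6; 6 of 8 genes had a promoter there. Motifs were searched on both strands.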

Additional observations from a re-analysis of the deposited data

How the results depend on the processing

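The main test already pairs the arms, because each array holds both and its ratio is tested against 0. No further pairing was possible, because the only comparison has 1 group of 2 arrays. Each array alone gives a ratio with no test, and of the called values none changed sign on either; Tcf4 probe 3 read -0.0023 and 0.02. With limma, main counts of 3507 genes higher and 3923 lower became 973 and 488 in processed signals, 898 and 425 in the series' own table, 1022 and 848 when tested against 1.2-fold, and 425 and 9238 with median centring, and the lower count was 2565 with position correction. Of the 8 genes, 2 called higher and 2 lower became 1 and 0 in processed signals and in the series' table, 1 and 1 against 1.2-fold, and 1 and 6 with median centring; 1 was lower with position correction and 0 with the mean of probes. Of their probes, 6 higher and 4 lower became 3 and 2 with position correction, 1 and 0 in processed signals and in the series' table, 2 and 1 against 1.2-fold, and 1 and 9 with median centring. The median of all genes was -0.40 after median centring, so its signs are relative to that shift. It gave -0.36 for Tal1 (called lower, adjusted p = 6.4e-04), -0.60 for Tcf3, -0.46 for Tcf4, -0.19 and -0.049 for Tcf12 probes 3 and 4, -0.030 for Tcf4 probe 3, -0.53 for Id1 probe 2, -0.20 for Gata2, -0.14 for Bmpr2, -0.49 for Cdkn1a, -0.053 for Notch3 and -0.13 for Smurf2, and 0.99 for Lyl1. Signs also turned for Tcf3 (-0.092 with position correction, -0.095 in processed signals and in the series' table, -0.12 with the mean of probes), Id1 probe 2 (-0.022 with position correction, -0.033 in processed signals and in the series' table) and Hey2 (0.00018 with position correction). The causes were not tested. The other alternatives (normexp offset 10, no background correction, either filter, outlier-flagged or saturated spots left out, other priors, separate channels) reversed no result and moved no count by over 1.5 times; among named genes outside the 8, calls were lost for 1 without the filter on dim probes, 2 with the robust prior and 3 with separate channels, and 1 was gained with offset 10. Lyl1 was called higher in each alternative that has a test. The Id2 probes and the dim probes of Tcf12 and Tcf4 are limited by signal over background.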
